A study of Mus musculus with 16 samples.

Results

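Dazl, a germ cell RNA-binding protein, was crosslinked to RNA in regions of 35 mouse genes whose symbols start with Ddx, Dhx, Rbm, Sf3, Prpf, Snrp, Srrm or Luc7l, and 31 of them could be given a value of their own. These genes are called the helicase and spliceosome genes below. They were chosen by symbol, without Ddx6 and Rbm39, from 149 genes of the RefSeq table that match, 138 of them protein-coding. The 31 genes hold 95 of the 8338 regions in the data and are 31 of 3203 genes with a value. The symbols also take in genes such as Rbms1 that are not known as parts of the spliceosome. A region was placed in 7 of the 36 Ddx genes that RefSeq lists, 3 of 16 Dhx and 11 of 52 Rbm genes.

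The spliceosome removes introns from pre-mRNA. It is built from small nuclear ribonucleoproteins (snRNPs), each a small nuclear RNA with a ring of Sm proteins and its own proteins, of which U1 binds the 5′ splice site and U2 the branch point. RNA helicases of the DEAD box (Ddx) and DEAH box (Dhx) families use ATP to open RNA duplexes or to strip proteins from RNA, and they drive the remodelling steps of splicing, ribosome assembly and export. Dazl, for its part, binds short GUU-containing stretches of mRNA, mainly in untranslated regions near the end of the message, and is known for the control of translation and stability of germ cell mRNAs.

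KIN-CLIP, a form of iCLIP, joins a protein to the RNA it touches with laser pulses of ultraviolet light over chosen times, and the study asks about the kinetics of binding in cells. They come from a single clone of GC-1 spg cells, a mouse line of spermatogonial origin, in which doxycycline switches on Dazl. All groups carry this inducible Dazl, and RNA bound to it was cut from a gel and turned into cDNA. The 12 conditions are the combinations of 4.2x and 1x Dazl, of 2.6 and 1 mW laser power, and of 30, 180 and 680 s of crosslinking. Each condition has 1 library, so no value below has a replicate, and the 4 samples of 0 s were not analysed here.

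The deposited values are normalized coverage in whole numbers, without strand, and a value summed over a region or gene is called its coverage. The sum over a library ran between 11271 (180 s, 1 mW, 1x) and 252932 (680 s, 2.6 mW, 4.2x), and the number of reads behind a value is unknown. At 180 s the total was lower than at 30 s in every series except that of 2.6 mW and 4.2x. Libraries are linked in a way that no source used here explains, most plainly in the 2.6 mW, 4.2x series. There 0 of 8338 regions were lower at 680 s than at 30 s, and 45.5% had the same value at both times. In the other series fewer regions had the same value at both times, 316 at 2.6 mW and 1x, 461 at 1 mW and 4.2x and 783 at 1 mW and 1x. Regions lower at 680 s than at 180 s numbered 49 at 2.6 mW and 1x and 0 in each other series. The lowest listed region value was 3 in the 680 s, 2.6 mW, 4.2x library. It was 2 in the 680 s libraries of 2.6 mW, 1x and of 1 mW, 4.2x, and 1 in all others. Tests below take the libraries as independent, so their p-values may be too small or too large. Of 16 germ cell marker genes 2 had a region, Sall4 with a mean of 1.67 and Mov10l1 with 2.42, and Dazl, Ddx4 and Ddx25, all typical of germ cells, had none. Markers of other cells were listed for Sertoli cells (2 of 6, Wt1 at 12.8 and Dhh at 12.3) and endothelium (1 of 3, Kdr at 4.33), and 0 of 5 for Leydig cells and 0 of 3 for macrophages. Coverage measures RNA linked to Dazl and not RNA level, so an RNA may be present in the cells and still have no region.

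Regions were short, 80 of the 95 being exactly 17 nt long, and the sequence of 2 of them could be read from the RefSeq tables of GRCm38.p6 (mm10). They are shown because they let the letters under the coverage be seen. The first lies in Ddx5, at chr11:106782727-106782743, inside the hairpin of the microRNA gene Mir3064, which RefSeq places on the same minus strand, at chr11:106782693-106782759. The second lies in Luc7l2, at chr6:38555504-38555520 on the plus strand, 203 nt before one of the gene's annotated starts, and is shown in a window of 78 nt. Capitals mark the region in the hairpin and in the window, and bases 2 to 8, the seed, in the mature microRNAs:
Mir3064 hairpin: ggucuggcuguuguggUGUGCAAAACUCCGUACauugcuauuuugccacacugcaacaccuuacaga
mmu-miR-3064-5p: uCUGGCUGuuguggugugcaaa
mmu-miR-3064-3p: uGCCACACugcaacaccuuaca
Luc7l2 window: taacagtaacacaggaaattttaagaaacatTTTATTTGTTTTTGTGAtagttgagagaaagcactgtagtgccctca

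The Ddx5 region overlapped mmu-miR-3064-5p by 8 nt and mmu-miR-3064-3p by 0 nt. Reads of Ddx5 pre-mRNA and of the microRNA hairpin cannot be told apart there. The letters GTT (GUU in RNA) were found 1 time in the Luc7l2 region and 0 times on the gene's strand of the Mir3064 region, where they occur 1 time on the opposite strand. Over the 59 regions of 17 nt in all genes that the promoter windows and hairpins cover, 28 (47.5%) held GTT on the gene's strand and 67.8% on either strand. Among non-overlapping 17-nt windows of the whole promoter table the shares were 16.6% and 31.0%. These windows include genes without a region and no hairpins, so the sets are not matched. A match of 3 letters is a description of the window and not a mapped site.

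By mean coverage over the 12 libraries, Ddx5 stood highest of the 31 genes with 186, followed by Luc7l2 with 128, Rbms1 with 120, Sf3b3 with 105 and Dhx15 with 85.9. Rbm38, at 3.58, stood lowest. These are sums over regions, and the genes hold between 1 (11 genes) and 12 regions (Ddx5), so the order also follows the number of regions. Per nucleotide of region the order differed: Rbm7, with 1 region, led at 1.42 per nt, Ddx5 had 0.867, Luc7l2 0.699 and Sf3b6, the lowest, 0.0935. The median of the 31 genes was 0.741 per nt, against 0.632 over all 3203 genes. Together the 31 genes held between 1.14% and 1.25% of the coverage in genes of every library, and 1 of them, Ddx5, was among the 100 genes with the highest mean.

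**Figure D1:**
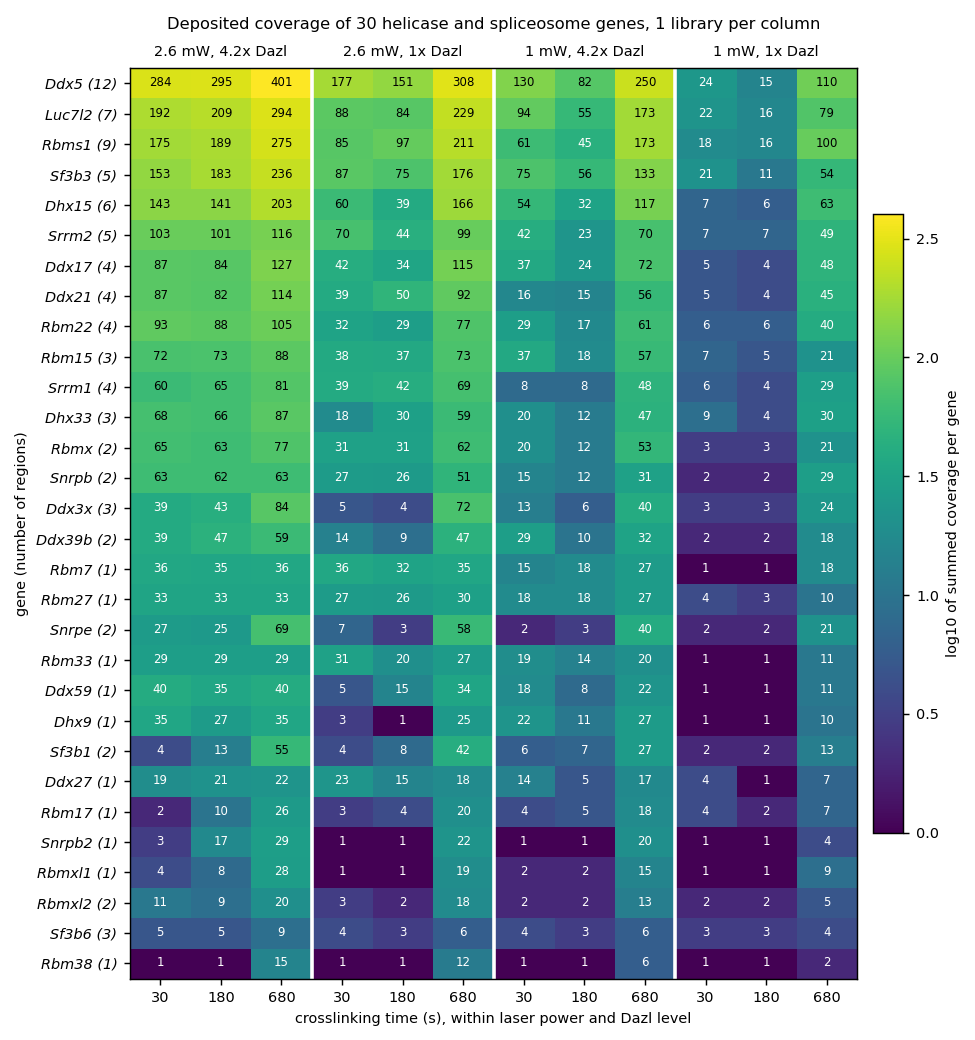
Coverage as deposited of 30 of the 31 genes (rows, highest mean at the top, number of regions in brackets) in the 12 libraries (columns, crosslinking time in s within laser power and Dazl level). Colour gives log10 of the summed coverage and the printed number the coverage itself; Ddx5 runs between 15 and 401, and Rbm38 stays at 1 in all 30 s and 180 s libraries.

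Among the helicases, Ddx5 (chr11:106780355-106789185), which acts in transcription, splicing and microRNA processing, had a coverage of 284 (30 s), 295 (180 s) and 401 (680 s) at 2.6 mW and 4.2x, against 177, 151 and 308 at 2.6 mW and 1x. At 1 mW its values were 130, 82 and 250 for 4.2x Dazl and 24, 15 and 110 for 1x. The lowest values of both Dazl levels at 1 mW thus fell at 180 s, and the highest value of each series at 680 s. Ddx17 (chr15:79527696-79546764), its close paralog, had 87, 84 and 127 at 2.6 mW and 4.2x, 42, 34 and 115 at 2.6 mW and 1x, 37, 24 and 72 at 1 mW and 4.2x, and 5, 4 and 48 at 1 mW and 1x. Dhx15 (chr5:52150203-52190546), the DEAH box helicase that takes spent spliceosomes apart, had 143, 141 and 203, then 60, 39 and 166, then 54, 32 and 117, and finally 7, 6 and 63, in the same order of conditions. All 3 helicases dipped at 180 s in at least 3 of the 4 series, as did most library totals.

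Ddx21 (chr10:62580247-62602298), a nucleolar helicase of ribosomal RNA processing, had 87, 82 and 114 at 2.6 mW and 4.2x, 39, 50 and 92 at 2.6 mW and 1x, 16, 15 and 56 at 1 mW and 4.2x, and 5, 4 and 45 at 1 mW and 1x. Ddx39b (chr17:35241746-35253707), also called UAP56, works in spliceosome assembly and mRNA export and had 39, 47 and 59, then 14, 9 and 47, then 29, 10 and 32, and 2, 2 and 18, in that order. Dhx9 (chr1:153455756-153487688), RNA helicase A, had 35, 27 and 35 at 2.6 mW and 4.2x, 3, 1 and 25 at 2.6 mW and 1x, 22, 11 and 27 at 1 mW and 4.2x, and 1, 1 and 10 at 1 mW and 1x. Dhx9 thus stood higher in every 4.2x library of a given time than in the 1x libraries of that time, even where the 4.2x library had the weaker laser. Ddx27 (chr2:167015313-167034945), another nucleolar helicase, had 19, 21 and 22, then 23, 15 and 18, then 14, 5 and 17, and 4, 1 and 7, in the same order, and at 2.6 mW its 3 values lay close together at 4.2x.

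In the U1 and U2 snRNP group, Luc7l2 (chr6:38551334-38609953), a U1-associated protein that takes part in 5′ splice site choice, had 192, 209 and 294 at 2.6 mW and 4.2x and 88, 84 and 229 at 2.6 mW and 1x. With 1 mW it had 94, 55 and 173 at 4.2x and 22, 16 and 79 at 1x. The SF3b complex of the U2 snRNP, which holds the branch point, was covered unevenly over its subunits, with a mean per nt of region of 0.938 on Sf3b3, 0.449 on Sf3b1 and 0.0935 on Sf3b6. Sf3b3 (chr8:110810491-110846806) had 153, 183 and 236 at 2.6 mW and 4.2x, 87, 75 and 176 at 2.6 mW and 1x, 75, 56 and 133 at 1 mW and 4.2x, and 21, 11 and 54 at 1 mW and 1x. Sf3b1 (chr1:54985169-55027501), the largest subunit, had 4, 13 and 55, then 4, 8 and 42, then 6, 7 and 27, and 2, 2 and 13, and its 30 s values differed by 4 or less over all conditions. Sf3b6 (chr12:4817608-4827659), the subunit that touches the branch point adenosine, never exceeded 9 and had 5, 5 and 9, then 4, 3 and 6, then 4, 3 and 6, and 3, 3 and 4. It has 3 regions and the lowest listed region value is 1 in most libraries, so 3 is the lowest value it can have there. In the 680 s libraries other than that of 1 mW and 1x the lowest listed value was 2 or 3. All regions of Sf3b6 were at that lowest value there, so its 6, 6 and 9 were also the lowest it could have.

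Among the Sm and U2 proteins, Snrpe (chr1:133603871-133610280) of the Sm ring had 27, 25 and 69 at 2.6 mW and 4.2x, 7, 3 and 58 at 2.6 mW and 1x, 2, 3 and 40 at 1 mW and 4.2x, and 2, 2 and 21 at 1 mW and 1x. Snrpb2 (chr2:143063069-143072052), a protein of the U2 snRNP, had 3, 17 and 29, then 1, 1 and 22, then 1, 1 and 20, and 1, 1 and 4. Both genes were near their lowest listed value at 30 and 180 s except at 2.6 mW and 4.2x, and both had the highest value of each series at 680 s. Snrpb, another Sm protein, differed from them in having 63, 62 and 63 at 2.6 mW and 4.2x, with 2, 2 and 29 at 1 mW and 1x.

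The SR-related scaffold proteins Srrm2 (chr17:23790527-23824741), of nuclear speckles, and Srrm1 (chr4:135320484-135353277) are given side by side. Srrm2 had 103, 101 and 116 at 2.6 mW and 4.2x, 70, 44 and 99 at 2.6 mW and 1x, 42, 23 and 70 at 1 mW and 4.2x, and 7, 7 and 49 at 1 mW and 1x. Srrm1 had 60, 65 and 81, then 39, 42 and 69, then 8, 8 and 48, and 6, 4 and 29. At 1 mW and 30 s Srrm1 was thus at 8 with 4.2x and 6 with 1x Dazl, where Srrm2 was at 42 and 7. Rbm22 (chr18:60560786-60572729), which sits near the catalytic centre of the spliceosome, had 93, 88 and 105, then 32, 29 and 77, then 29, 17 and 61, and 6, 6 and 40. Rbm17 (chr2:11585439-11603199), a protein of alternative 3′ splice site choice, had 2, 10 and 26, then 3, 4 and 20, then 4, 5 and 18, and 4, 2 and 7, so its 30 s values showed no increase with light or Dazl.

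Of the other RBM genes, Rbms1 (chr2:60750193-60963880), a single-strand nucleic acid-binding protein, had 175, 189 and 275 at 2.6 mW and 4.2x, 85, 97 and 211 at 2.6 mW and 1x, 61, 45 and 173 at 1 mW and 4.2x, and 18, 16 and 100 at 1 mW and 1x. Rbm15 (chr3:107305511-107334460), which guides the m6A methyltransferase complex to RNA, had 72, 73 and 88, then 38, 37 and 73, then 37, 18 and 57, and 7, 5 and 21. Rbm27 (chr18:42275205-42341542) had 33, 33 and 33, then 27, 26 and 30, then 18, 18 and 27, and 4, 3 and 10, with the same value at all times in the first series. Rbmxl1 (chr8:78505269-78508928), a retrocopy of Rbmx, had 4, 8 and 28, then 1, 1 and 19, then 2, 2 and 15, and 1, 1 and 9. How reads that match both Rbmx and its copies Rbmxl1 and Rbmxl2 were placed is not given, so values of these genes are uncertain. Rbm38 (chr2:173021891-173034734), a regulator of mRNA stability, was at 1 in the 8 libraries of 30 and 180 s and at 15, 12, 6 and 2 at 680 s, in the order of conditions used above.

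More Dazl went with more coverage on nearly all of these genes in the values as deposited. At 4.2x against 1x Dazl, 27 of the 31 genes rose and 0 fell at an adjusted p under 0.05 in limma, where 82.4% of all 3203 genes rose, and on libraries scaled to equal totals the fitted change was above 0 for 17 of the 31 and none passed. The share of these genes is thus near that of all genes. Their median log2 change was 0.99, against 0.88 over all genes. In these bulk libraries the number of cells, the RNA per cell and the Dazl bound per RNA cannot be told apart. The fitted changes are on the log2(value + 3) scale, which understates the change of low genes. Without the 30 s libraries 8 of the 31 passed, where 36.7% of all genes did, and without the 180 s libraries 13, where 47.1% did. When some single library was left out, 5 of the 27 calls were lost, those of Ddx21, Ddx27, Rbm7, Sf3b1 and Snrpe (adjusted p 0.05018 to 0.1336).

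Dhx9 changed most, by 1.94 ± 0.28 (SE, log2 scale, adjusted p = 2.633e-07 in limma), and its coverage was higher at 4.2x in 6 of 6 matched pairs of libraries. The ratio of its coverage at 4.2x to that at 1x was 22 at 30 s and 1 mW and 1.4 at 680 s and 2.6 mW. Dhx9 has 1 region, of 17 nt, which was at 1, the lowest listed value, in 3 libraries, all of 1x Dazl. The ratio of 22 is taken over such a value. Dhx15 followed with 1.43 ± 0.34 (adjusted p = 0.0003708) and Ddx39b with 1.41 ± 0.29 (adjusted p = 8.019e-05), both higher in 6 of 6 pairs. In all, 21 of the 31 genes were higher at 4.2x in each of the 6 pairs. The library total was also higher at 4.2x in each pair, and counts of pairs or series were not made over all genes.

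The genes that did not pass were Rbm38 with a log2 change of 0.19 ± 0.22 (adjusted p = 0.4251 in limma), Sf3b6 with 0.27 ± 0.16 (adjusted p = 0.1172), Rbm17 with 0.45 ± 0.24 (adjusted p = 0.07571) and Srrm1 with 0.50 ± 0.31 (adjusted p = 0.1181). The first 3 have many libraries at or near the lowest listed value. Rbm38 and Rbm17 each passed when 1 of 3 libraries was left out, namely 30 s, 1 mW, 1x or 30 s, 2.6 mW, 4.2x or 680 s, 2.6 mW, 1x, with adjusted p values between 0.01727 and 0.03952 for Rbm38 and between 0.02286 and 0.04656 for Rbm17. Srrm1 passed when the 680 s library of 2.6 mW and 4.2x was left out (adjusted p = 0.01961 in limma).

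The Dazl ratio in matched pairs is given by time, without a test of the times against each other. Over the 31 genes the median ratio of 4.2x to 1x coverage at 1 mW was 4.33 at 30 s, 3.6 at 180 s and 1.86 at 680 s, and over all genes it was 4, 3.5 and 2. At 2.6 mW it was 2.07, 2.3 and 1.24 for these genes and 1.88, 2.04 and 1.26 for all genes. The ratios at 1 mW are taken over the 1 mW, 1x libraries, where many regions were at 1, the lowest listed value. Their share was 66.3% at 30 s, 76.8% at 180 s and 3.16% at 680 s among regions of these genes. Among all regions it was 74.0%, 80.5% and 7.99%. The part of this in the ratios was not tested. All 31 genes were higher at 4.2x in both 680 s pairs, while at 30 s 26 of them were higher at 1 mW and 25 at 2.6 mW, where Rbm17, at 2 with 4.2x and 3 with 1x, had the lowest ratio.

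**Figure D2:**
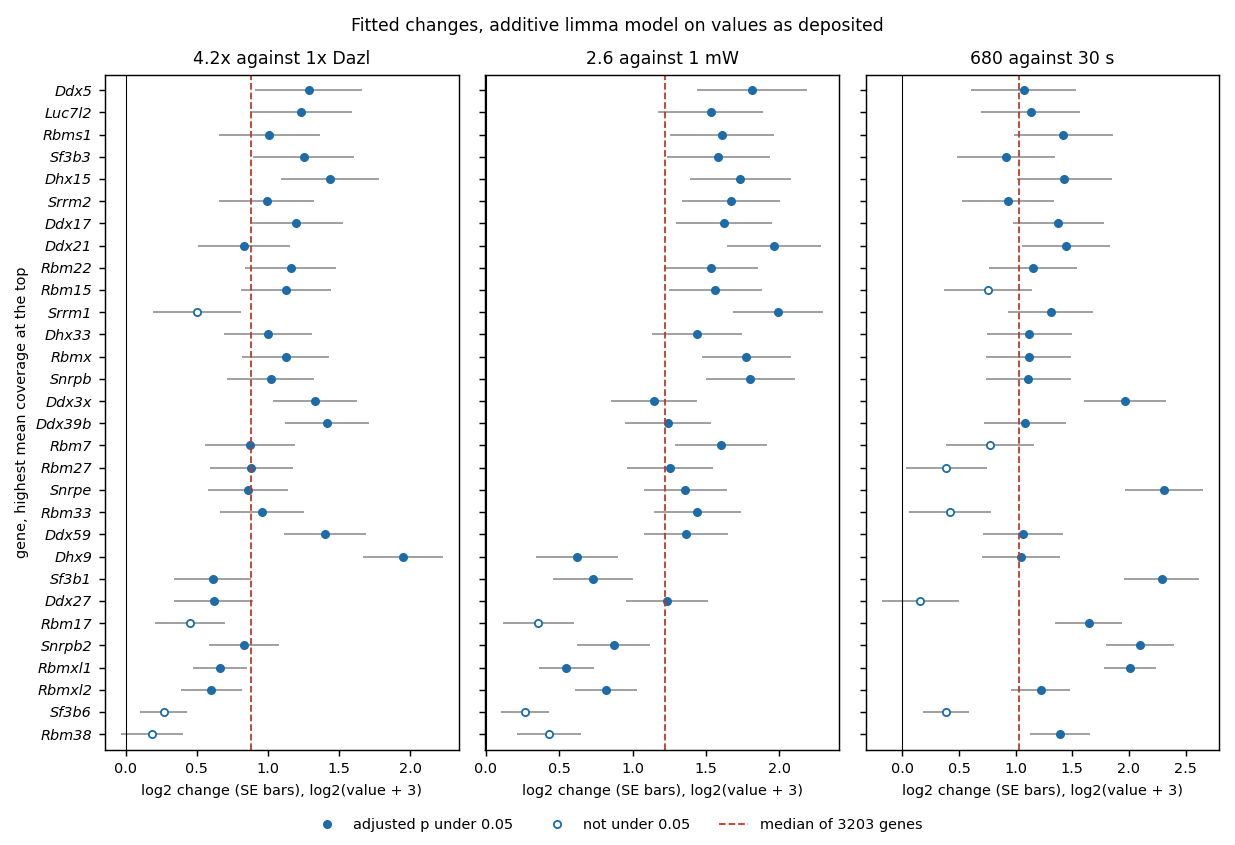
Fitted log2 change of 30 of the 31 genes (rows, highest mean at the top) for 4.2x against 1x Dazl, 2.6 against 1 mW and 680 against 30 s, from the additive limma model on values as deposited. Points are estimates with SE bars, filled where the adjusted p is under 0.05, and the dashed line is the median of 3203 genes; every estimate is above 0, which on libraries scaled to equal totals holds for 17, 13 and 20 of the 31.

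Stronger light went with more coverage as well. At 2.6 against 1 mW, 28 of the 31 genes rose and 0 fell in limma, where 93.4% of all genes rose, and on libraries scaled to equal totals the fitted change was above 0 for 13 of the 31 and none passed. The median log2 change of the 31 genes was 1.44, against 1.22 over all genes. Srrm1 changed most, by 1.99 ± 0.31 (adjusted p = 7.757e-08), followed by Ddx21 with 1.96 ± 0.32 (adjusted p = 2.171e-07) and Ddx5 with 1.81 ± 0.38 (adjusted p = 1.204e-05). Each of these was higher at 2.6 mW in 6 of 6 matched pairs, as were 23 of the 31 genes and the library total.

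Dhx9, the first gene in the Dazl comparison, had a small change with light, 0.62 ± 0.28 (adjusted p = 0.03181 in limma), and was higher at 2.6 mW in 5 of 6 pairs. This call was lost, with adjusted p values between 0.05371 and 0.1976, without any 1 of 6 libraries: 180 s, 1 mW, 4.2x, 180 s, 2.6 mW, 4.2x, 30 s, 1 mW, 1x, 30 s, 2.6 mW, 4.2x, 680 s, 1 mW, 4.2x or 680 s, 2.6 mW, 1x. Ddx39b rose by 1.24 ± 0.29 (adjusted p = 9.035e-05), but without its region that overlaps the noncoding gene Gm25128 the change was 0.44 (adjusted p = 0.1079 in limma). The genes that did not pass were Sf3b6 with 0.27 ± 0.16 (adjusted p = 0.1086), Rbm17 with 0.36 ± 0.24 (adjusted p = 0.1483) and Rbm38 with 0.43 ± 0.22 (adjusted p = 0.07819). Rbm17 passed without the 30 s, 1 mW, 1x or the 30 s, 2.6 mW, 4.2x library (adjusted p 0.043 and 0.04602). Rbm38 passed without any 1 of 9 libraries, with adjusted p values of at most 0.04622, the exceptions being 180 s, 1 mW, 4.2x, 680 s, 1 mW, 4.2x and 680 s, 2.6 mW, 4.2x.

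In the matched pairs the median light ratio was lowest at 680 s, again without a test. Over the 31 genes the median ratio of 2.6 to 1 mW coverage at 1x Dazl was 5.33 at 30 s, 6.5 at 180 s and 2.61 at 680 s, and over all genes 4.63, 5.75 and 2.42. At 4.2x Dazl it was 2.35, 4.2 and 1.69 for these genes and 2.25, 3.58 and 1.6 for all genes. The ratios at 1x Dazl are also taken over the 1 mW, 1x libraries, with most regions at the lowest listed value at 30 and 180 s. Rbm7, a protein of the nuclear exosome targeting complex NEXT, showed the highest ratios at 1x Dazl, with 36 at 2.6 mW against 1 at 1 mW at 30 s and 32 against 1 at 180 s. At 680 s its values at 1x were 35 at 2.6 mW and 18 at 1 mW.

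A light-dependent Dazl effect was tested as the difference between the Dazl effect at 2.6 mW and that at 1 mW. None of the 31 genes passed in either direction in limma, 3 had an unadjusted p under 0.05, and over all genes 0% passed as higher and 0.0312% as lower. The lowest adjusted p values belonged to Rbm7 (difference of -1.64 ± 0.55, adjusted p = 0.1674) and Rbm33 (-1.59 ± 0.54, adjusted p = 0.1719), which were at 1 in the 30 s and 180 s libraries of the 1 mW, 1x series. Rbm27 had -1.30 ± 0.55 (adjusted p = 0.2579). Without the 680 s, 1 mW, 1x library 8 of the 31 genes passed as lower, namely Ddx17, Ddx5, Dhx15, Rbm27, Rbm33, Rbm7, Sf3b3 and Srrm2, where 25.0% of all genes did, so this share is near that of all genes, and 0 passed as higher, where 1.87% did. Without the 680 s libraries Rbm27, Rbm33 and Rbm7 passed as lower, where 9.74% of all genes did, and Rbmxl2 as higher, where 8.37% did.

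Coverage at 680 s was above that at 30 s on most of these genes. At 680 against 30 s, 25 of the 31 genes rose and 0 fell in limma, where 73.0% of all genes rose, and on libraries scaled to equal totals the fitted change was above 0 for 20 of the 31 and 3 passed. The median log2 change was 1.12, against 1.03 over all genes. Snrpe changed most, by 2.31 ± 0.35 (adjusted p = 1.193e-08), followed by Sf3b1 with 2.29 ± 0.33 (adjusted p = 4.08e-09) and Snrpb2 with 2.10 ± 0.30. All 3 were higher at 680 s in 4 of 4 series, as were 23 of the 31 genes and the library total. In the deposited values almost no region of any series was lower at 680 s than at 180 s. The count of 0 falling and the counts of series thus say little about these genes. With a straight line on log2 time in place of separate times, 10 of the 31 genes passed, where 38.2% of all genes did.

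The genes with the smallest change in time were Ddx27 with 0.16 (adjusted p = 0.6613 in limma), Sf3b6 with 0.38 (adjusted p = 0.07529) and Rbm27 with 0.39 (adjusted p = 0.309). Rbm33 with 0.42 (adjusted p = 0.2725), Rbm15 with 0.75 (adjusted p = 0.06941) and Rbm7 with 0.77 (adjusted p = 0.06438) did not pass either. Rbm15 passed without the 30 s, 1 mW, 4.2x or the 680 s, 2.6 mW, 4.2x library (adjusted p 0.03459 and 0.005212), and Rbm7 without 1 of 3 libraries (30 s, 1 mW, 4.2x, 30 s, 2.6 mW, 1x or 680 s, 2.6 mW, 4.2x), with adjusted p values between 0.01587 and 0.02815. Rbm33 and Rbm7 were higher at 680 s in 2 of 4 series: at 2.6 mW and 1x Rbm33 had 27 at 680 s and 31 at 30 s, and Rbm7 35 and 36.

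Many calls in time depended on single libraries: 12 of the 25 were lost when some library was left out, among them those of 5 of the 10 genes of highest coverage. Ddx5 rose by 1.07 ± 0.46 (adjusted p = 0.03291 in limma), Luc7l2 by 1.13 ± 0.44 (adjusted p = 0.01896) and Srrm2 by 0.93 ± 0.41 (adjusted p = 0.03533). Each of these 3 calls was lost without any 1 of the same 5 libraries, 30 s, 1 mW, 1x, 30 s, 2.6 mW, 4.2x, 680 s, 1 mW, 1x, 680 s, 1 mW, 4.2x or 680 s, 2.6 mW, 1x. The adjusted p values in limma were then 0.09437 to 0.1342 for Ddx5, 0.05922 to 0.08396 for Luc7l2 and 0.08077 to 0.2125 for Srrm2. Sf3b3 rose by 0.91 ± 0.43 (adjusted p = 0.04893) and lost its call (adjusted p 0.05822 to 0.1666) without any 1 of 9, the exceptions being 180 s, 1 mW, 1x, 30 s, 1 mW, 4.2x and 680 s, 2.6 mW, 4.2x. Rbm22 rose by 1.15 ± 0.39 (adjusted p = 0.00775) and did not pass without the library of 680 s, 1 mW and 1x (adjusted p = 0.07309). Ddx39b, Dhx33, Rbmx and Snrpb each lost the call without 1 of 2 libraries, and Ddx59 and Dhx9 without 1 library.

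When the libraries are set to equal totals, only a gene that departs from the whole library can pass. For Dazl and light 0 of the 31 genes passed in limma, as did 0% of all genes in each direction, and 6 and 7 of the 31 had an unadjusted p under 0.05. Over all genes 538 and 928 had such a p. Dhx9 departed most with Dazl, by 1.17 ± 0.26 (adjusted p = 0.1288), and it passed once the 680 s library of 2.6 mW and 1x, that of 1 mW and 4.2x, or every 680 s library was left out. The scaling multiplies the 180 s, 1 mW, 1x library by 7.3 and the 680 s, 2.6 mW, 4.2x library by 0.326, so a listed value of 1 becomes 7.3 in the first. Sf3b6, with every region at 1 in 4 libraries, had a departure of -0.87 ± 0.28 with light (adjusted p = 0.1349), and the part of the lowest listed value in it was not tested.

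In time 3 of the 31 genes rose beyond their library, where 9.74% of all genes did, and 0 fell, where 1.56% of all genes did. Sf3b1 departed by 1.20 ± 0.29 (adjusted p = 0.01514 in limma), Snrpe by 1.31 ± 0.37 (adjusted p = 0.02967) and Rbmxl1 by 1.10 ± 0.30 (adjusted p = 0.02628). None of these calls held without the 30 s, 2.6 mW, 1x library, the 680 s, 2.6 mW, 1x library or the 680 s, 2.6 mW, 4.2x library. Snrpe alone of the 3 passed when the 30 s library of 2.6 mW and 4.2x was left out, and only Sf3b1 without the 30 s or the 680 s library of 1 mW and 4.2x. Without the 680 s, 1 mW, 1x library Snrpe no longer passed and the others did. Ddx27 (-0.83 ± 0.27, adjusted p = 0.05635) and Rbm27 (-0.64 ± 0.23, adjusted p = 0.08059) lay on the other side without passing, and Snrpb2 had 1.15 ± 0.38 (adjusted p = 0.05676). Ddx27 passed as lower without the 30 s, 2.6 mW, 4.2x library, the 180 s, 2.6 mW, 1x library or the 180 s, 1 mW, 1x library. Snrpb2 passed as higher without any 1 of the 3 libraries of 1 mW and 1x or of the 180 s libraries of 2.6 mW. In limma without trend and robust settings Snrpe had an adjusted p of 0.05619, and among genes with a mean of at least 10 it had 0.05308.

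**Figure D3:**
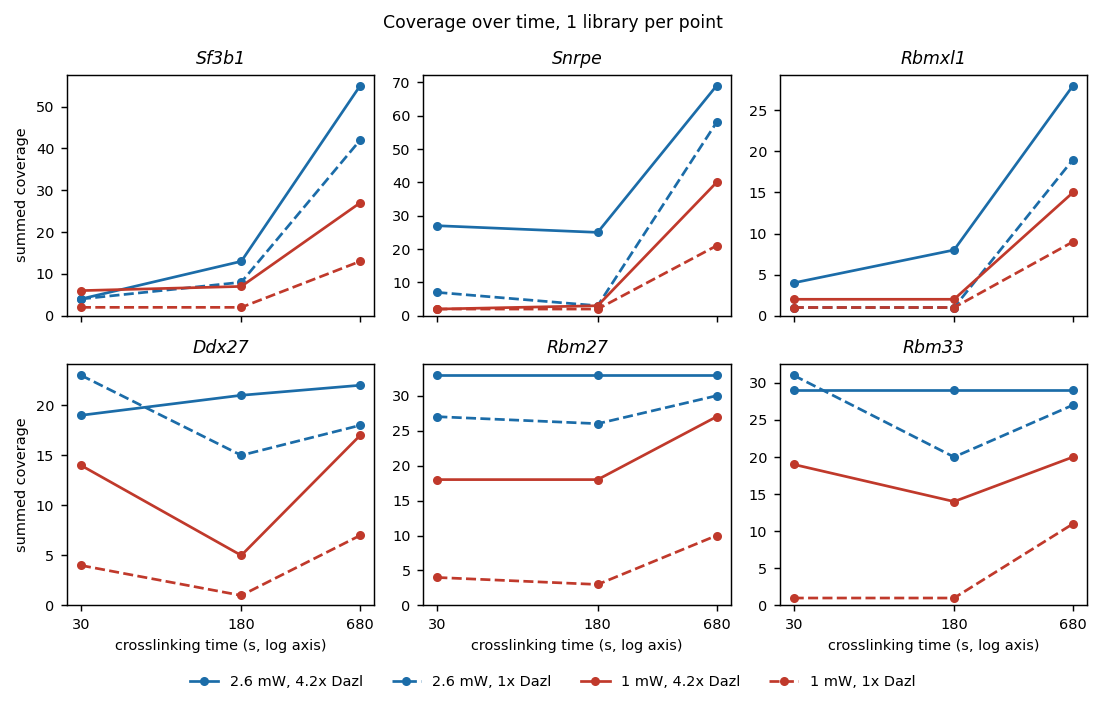
Coverage as deposited of 6 genes (vertical axis) against crosslinking time in s (log axis), 1 library per point, with colour for laser power and solid or dashed lines for 4.2x or 1x Dazl. Sf3b1, Snrpe and Rbmxl1 are highest at 680 s in every series, while Ddx27, Rbm27 and Rbm33 at 2.6 mW and 4.2x lie at 19 to 22, 33 and 29 at all times.

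How much of the 680 s coverage was already there at 30 s gives a second view of the time course. At 2.6 mW and 4.2x the median over the 31 genes was 70.8% (all genes 68.9%), at 2.6 mW and 1x 40.3% (45.9%), at 1 mW and 4.2x 47.5% (50%) and at 1 mW and 1x 15% (18.2%). Within a series the genes covered nearly the whole range: at 2.6 mW and 4.2x Rbm38 had 6.67% and Dhx9 100%. The 180 s value was lower than the 30 s value in 14 of the 31 genes at 2.6 mW and 4.2x, in 20 at 2.6 mW and 1x, in 20 at 1 mW and 4.2x and in 13 at 1 mW and 1x.

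Single regions were set against their 680 s value in the same way. At 2.6 mW and 4.2x, 48 of the 95 regions (50.5%) had at 30 s at least 90% of their 680 s value, against 47.8% of the regions of other genes, and 12 (12.6%) had at most 10%, against 7.09%. These shares are given without a test. In 47 of the 95 regions (49.5%) the values at 680 s and 30 s were identical, and 4 of the 95 regions, 3 of Sf3b6 and 1 of Rbms1, were at 3 at 680 s, the lowest value listed in that library.

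Early and late regions, by these limits and at 2.6 mW and 4.2x, stood side by side in 6 of the 20 genes with more than 1 region. They are Ddx21, Ddx5, Dhx15, Luc7l2, Rbms1 and Rbmxl2, and the same count was not made over all genes. In the other series few of the 95 regions had identical values at 30 and 680 s. There were 5 at 2.6 mW and 1x, 3 at 1 mW and 4.2x and 4 at 1 mW and 1x. The next values are of the 2.6 mW, 4.2x series. In Dhx15 the region 46 nt before the gene end had 1, 3 and 36 at 30, 180 and 680 s, while the region 76 nt before the end had 32, 27 and 32. In Ddx5 the region 2200 nt before the end had 2, 8 and 42, and that in the Mir3064 hairpin, 2372 nt before the end, had 40, 32 and 40. In Ddx21 3 regions were at 25 to 29 at all times, and the fourth, 438 nt before the end, had 3, 3 and 30. The Luc7l2 region shown above had 20, 20 and 20, while the one 1128 nt after the gene start had 1, 1 and 23.

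Snrpe showed a similar contrast at 2.6 mW and 4.2x between its 2 regions, both near the gene start. The region at 529 nt had 26, 24 and 34, and the one at 613 nt had 1, 1 and 35. In the other series the region at 529 nt was also low until 680 s. It had 4, 2 and 33 at 2.6 mW and 1x, 1, 2 and 17 at 1 mW and 4.2x, and 1, 1 and 11 at 1 mW and 1x. In Sf3b1, again at 2.6 mW and 4.2x, the region 7740 nt before the gene end had 1, 1 and 32. The one at 1628 nt had 3, 12 and 23, which is 13.0% of its 680 s value at 30 s and 52.2% at 180 s. At 2.6 mW and 4.2x a gene's change in time is therefore a mixture of courses in some of these genes and uniform in others. The fitted change in time is taken over all series.

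**Figure D4:**
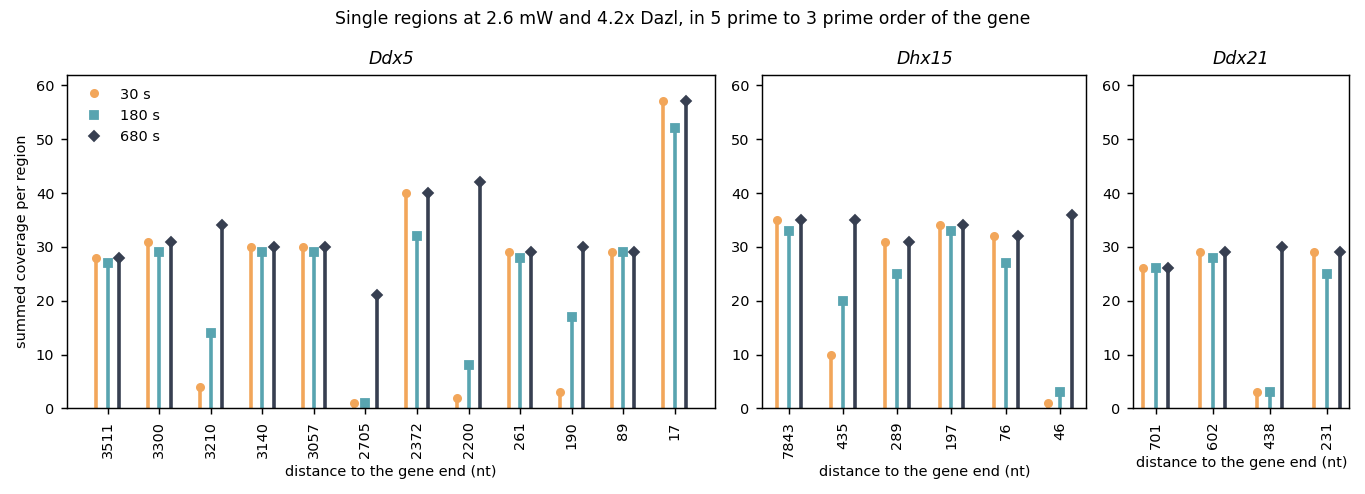
Coverage of single regions of Ddx5, Dhx15 and Ddx21 at 2.6 mW and 4.2x Dazl (vertical axis) in 5′ to 3′ order, labelled by distance to the gene end in nt, at 30, 180 and 680 s, 1 library per time. Most regions are level from 30 s on, and a few, such as that of Dhx15 at 46 nt with 1, 3 and 36, are low until 680 s.

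The place of regions in the genes was described for the 87 of 95 regions whose gene has a strand in the RefSeq promoter table, which leaves out Rbm22, Rbm27 and Snrpb among others. Of these, 38 (43.7%) lay within 1000 nt of the gene end, against 37.2% of the regions of other genes, and 8 (9.20%) within 1000 nt of the gene start, against 6.56%, with 2 regions of the short gene Rbmxl2 in both. The median distance to the gene end was 2200 nt, against 1671 nt in other genes, and none of these differences was tested. All 5 regions of Srrm2, all 4 of Srrm1, all 4 of Ddx21 and 5 of 6 in Dhx15 lay near the end. The 3 regions of Sf3b6, both of Snrpe and the 1 of Ddx27 lay near the start. Exons and untranslated regions were not annotated here, so the place is by gene span only.

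Near the gene end 23 of 38 regions had at least 90% of their 680 s value at 30 s (2.6 mW, 4.2x), and 5 had at most 10%. Elsewhere the counts were 19 and 7 of 49. The median share was 100% near the end and 75.6% elsewhere, given as a description, since regions of a gene share their RNA. Sf3b3 has a region of 44 nt at the very end of the gene, which also lies in the noncoding gene Gm15895 and had 57, 74 and 102 at 2.6 mW and 4.2x.

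Other genes of the same pathways were taken from a list of 88 further spliceosome, export and helicase genes. Of the 88, 23 had a region. In limma 22 of the 23 rose with Dazl, 22 with light and 17 at 680 s, with 0 falling in each. Over all 3203 genes 82.4%, 93.4% and 73.0% rose. On libraries scaled to equal totals 0, 0 and 4 of the 23 rose and 1 fell, in time. Over all genes 0%, 0% and 9.74% then rose, and 1.56% fell in time. The median log2 changes of the 23 genes as deposited were 0.89, 1.28 and 1.21, against 0.88, 1.22 and 1.03 over all genes. The 5 with the highest mean of summed coverage were Sf1, a branch point-binding protein, with 161, Casc3, of the exon junction complex, with 118, Strap, of the SMN complex, with 89, Eif4a1, a helicase of translation initiation, with 79.4, and Phf5a, of SF3b, with 56.3. Casc3 did not pass in time (log2 change of 0.77, adjusted p = 0.103), and neither did Strap (0.82, adjusted p = 0.07503).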

How the data were processed

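The deposited files give, per library, intervals of mm10 with 1 value each, a score that the authors call normalized coverage; the tools named, without versions, are FastQC and Bowtie2, per the submitters' processing notes. Counting, normalization, site selection and the handling of reads that match several places are not given in any source used here, so the depth is unknown. The genes and gene lists were chosen with earlier results of these data known.

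Neighbouring intervals were joined where the gap was 10 nt or less, region value is width times score, and gene value the sum over regions. Regions were given to their gene where they touched a single gene, or a single protein-coding gene beside noncoding ones, by gene span in RefSeq GRCm38.p6. This left out Ddx49, Rbm4b, Rbm14 and Rbm46os. Strand came from the promoter table.

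log2(value + 3) of 3203 genes was fitted with limma 3.58.1 (R 4.3.3; eBayes with trend and robust), with additive terms for Dazl level, laser power and time, and with 7 residual degrees of freedom and a median of 107 prior ones, which pool the spread over genes. Fits were repeated on libraries scaled to equal totals, and with a Dazl by laser term. The scaled fit had a median of 11.05 prior degrees of freedom. The fit with the Dazl by laser term had 1396, with 6 residual ones, so its spread is almost wholly pooled over genes. P-values were adjusted by Benjamini-Hochberg over all genes, with a threshold of 0.05. The fits were tested on simulated data, with a Dazl change put into 200 of the 3203 genes. At a log2 change of 1, 56% of the 200 were recovered with 3 false calls, and at 2, 99% with 5. The simulated spread was independent between libraries, which the deposited values may not be. Every gene could be named, and 1 of the 31 is counted but not reported singly here; values in all libraries are given for the 10 highest means, the 3 largest and smallest changes per comparison and genes passing on scaled libraries. Alternatives were pseudocounts of 1 and 10, a mean filter of 10, joining at 0 and 50 nt, regions in 1 gene only, each library or time left out, plain limma, median shifts and a slope on log2 time.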

Additional observations from a re-analysis of the deposited data

Results flagged for a closer look

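Regions that lie in a helicase or RBM gene and in another protein-coding gene, or in a noncoding gene of the set, were in no comparison, since without strand they cannot be given to either. The 4 regions shared by Ddx49, a helicase gene of the set, and Homer3 summed to 157 in the 680 s, 2.6 mW, 4.2x library and averaged 84.8 over the 12 libraries. The region shared by Rbm4b and Gm21992 had 25 in that library, and the one shared by Rbm14 and Gm21992 had 3. The 2 regions shared by the antisense gene Rbm46os and Lrat summed to 9. The Ddx49 and Homer3 regions had 153 (30 s), 147 (180 s) and 157 (680 s) in the 2.6 mW, 4.2x series, against 13, 7 and 42 in the 1 mW, 1x series.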

How the results depend on the processing

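Values have no replicates, and no depth in reads. No paired analysis was possible because every library has the same replicate number, so that no numbers pair libraries; matching is by condition only, through the additive terms and the matched ratios. The 27 genes called for Dazl became 8 with no 30 s library in the fit, 13 with no 180 s library, 0 on libraries scaled to equal totals and 1 on libraries shifted to the same median (3.06% of all genes). The 28 called for light became 0 when scaled and 4 when shifted (10.8% of all genes). The 25 called for time became 3 when scaled, 4 when shifted (10.2% of all genes) and 10 with a slope on log2 time. Leaving out 1 library gave 23 to 28, 27 to 29 and 17 to 27 calls for Dazl, light and time. Over all 3203 genes the same fits gave 2225 to 2625, 2794 to 3011 and 1678 to 2627 genes as higher.

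On scaled libraries, leaving out 1 library gave 0 to 1 genes higher with Dazl, 0 to 4 higher and 0 to 1 lower in time, and 0 in the other directions. Over all 3203 genes it gave 0 to 43 higher with Dazl and, in time, 104 to 406 higher and 12 to 70 lower. In the other directions it gave 0 to 7 lower with Dazl, and 0 to 26 higher and 0 to 7 lower with light. For Dazl, 1 gene was higher without the 680 s libraries (1.72% of all genes) and 1 when shifted. For light, 4 were higher and 5 lower when shifted (22.9% of all genes lower). In time, 1 of the 3 passed among genes with a mean of at least 10 (6.94% of the genes tested). In time too, 1 was lower with a pseudocount of 10 (1.59% of all genes) and 2 when shifted (19.5%), Ddx27 and Rbm27.

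The settings for the difference of the Dazl effect between laser powers were chosen after seeing the data. Leaving out 1 library gave 0 higher and 0 to 8 lower, where all 3203 genes gave 0 to 60 and 0 to 800. Without the 680 s libraries 1 was higher and 3 were lower, where 8.37% and 9.74% of all genes were.

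Of 96 single-gene results, 28 changed side of the threshold without some single library. Only scaling and shifting turned the sign of a called change; the uncalled changes of Rbm38 with Dazl and of Ddx27 in time also went below 0 without some single library, to -0.033 and to -0.050 at the lowest. The next values are of genes called as deposited or under the setting, and genes called in neither follow after them. For Dazl the scaled log2 changes were Ddx21 -0.24, Ddx27 -0.25, Dhx33 -0.11, Rbm27 -0.11, Rbms1 -0.20, Rbmxl1 -0.051, Rbmxl2 -0.28, Sf3b1 -0.22, Snrpe -0.10 and Srrm2 -0.14. The shifted ones included Ddx21 -0.084, Ddx27 -0.30, Rbm27 -0.032, Rbm7 -0.043, Rbmxl1 -0.25, Rbmxl2 -0.31, Sf3b1 -0.31, Snrpb2 -0.086 and Snrpe -0.057. For light the scaled changes were Ddx27 -0.018, Ddx39b -0.12, Ddx3x -0.28, Dhx33 -0.12, Dhx9 -0.55, Luc7l2 -0.19, Rbm15 -0.012, Rbm22 -0.049, Rbm27 -0.19, Rbms1 -0.10, Rbmxl1 -0.44, Rbmxl2 -0.35, Sf3b1 -0.50, Sf3b3 -0.11 and Snrpb2 -0.11. The shifted ones were Ddx27 -0.0065, Ddx39b -0.0018, Ddx3x -0.10, Dhx9 -0.62, Rbm17 -0.88, Rbm38 -0.81, Rbmxl1 -0.69, Rbmxl2 -0.42, Sf3b1 -0.51, Sf3b6 -0.97 and Snrpb2 -0.37, of which Dhx9, Rbm17, Rbm38, Rbmxl1 and Sf3b6 passed in limma. In time the scaled changes were Ddx5 -0.17, Dhx33 -0.033, Luc7l2 -0.10, Sf3b3 -0.31 and Srrm2 -0.22. The shifted ones included Ddx27 -0.95, Ddx39b -0.024, Ddx5 -0.035, Ddx59 -0.037, Dhx9 -0.057, Rbm27 -0.72, Sf3b3 -0.19 and Srrm2 -0.17. Of genes called in neither, the scaled changes below 0 were Rbm17 -0.40, Rbm38 -0.37, Sf3b6 -0.59 and Srrm1 -0.59 for Dazl, Rbm17 -0.85, Rbm38 -0.37 and Sf3b6 -0.87 for light, and Ddx27 -0.83, Rbm15 -0.39, Rbm27 -0.64, Rbm33 -0.40, Rbm7 -0.074 and Sf3b6 -0.46 in time. The shifted ones were Rbm17 -0.46, Rbm38 -0.73, Sf3b6 -0.65 and Srrm1 -0.41 for Dazl, and Rbm15 -0.35, Rbm33 -0.68, Rbm7 -0.33 and Sf3b6 -0.72 in time. Both settings remove the shift of the whole library, which is a log2 median of 0.88, 1.22 and 1.03 for Dazl, light and time. Joining at 0 or 50 nt changed no call.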
